A study of Mus musculus with 6 samples.

Results

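The 52 genes described here encode the machinery of DNA replication (28 S phase genes) and of mitosis (24 G2/M genes). They were found by gene symbol among the 41128 genes of a table of RNA sequencing values from murine acute myeloid leukemia (AML). The comparison asks how leukemias driven by *Hoxa9* alone and with *IRX3* differ in their transcripts. Each of 6 diseased mice gave 1 library, made from KIT+Gr1+ cells sorted out of its bone marrow (BM). The *Hoxa9*/MTV cohort (mice 1.1, 1.2 and 1.4) carried retroviral *Hoxa9* with the empty vector MTV, and the *Hoxa9*/*IRX3* cohort (mice 3.2, 3.3 and 3.5) carried retroviral *Hoxa9* with human *IRX3*. Both cohorts thus share forced *Hoxa9*, drug selection of the transduced cells and transplantation into irradiated congenic recipients. The labels give the strain as C57BL/6 and no age. The sorted cells were those of donor origin, and each library stands for the leukemia of 1 animal. *IRX3* is the Iroquois homeobox transcription factor under study, and *Hoxa9* is a homeobox gene that immortalizes myeloid progenitors.

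A cell copies its genome in S phase and divides it in mitosis (M), after a second gap (G2). Before S phase, CDC6 and CDT1 load the MCM2-7 helicase onto origins; CDC45 and the GINS complex then switch it on, and polymerases, primase, the PCNA clamp and its loader RFC copy the strands. Transcription of many of these genes is switched on by E2F factors at the G1/S boundary. In G2, CDK1 with cyclins A2 and B1 starts mitosis, Aurora and Polo-like kinases and kinesin motors build the spindle, BUB proteins check attachment, and the anaphase-promoting complex (APC/C) with CDC20 and UBE2C ends it. Transcription of the mitotic genes is known to run through the B-MYB, FOXM1 and DREAM complexes, which act at CHR elements and at CCAAT boxes bound by NF-Y. In normal BM, transcripts of both groups are highest in dividing progenitors and are lost as granulocytes mature, so they are commonly read as a sign of how many cells of a sample are cycling.

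These elements were searched in the reference sequence. RefSeq promoter windows on GRCm38.p6, from 250 bases before to 50 after an annotated start, were matched by symbol for 22 of the 28 S phase genes (26 windows) and 18 of the 24 G2/M genes (18 windows). E2F sites were searched on both strands as TTTGGCGC, TTTCCCGC, TTTGCCGC or TTTCGCGC, words that can overlap each other. They were found in 10 S phase windows (38.5%), in 1 G2/M window (5.6%) and in 4.2% of the 9125 windows of all tested genes. The CHR element, searched as TTTGAA on both strands, was found in 13 G2/M windows (72.2%), in 3 S phase windows (11.5%) and in 12.2% of all tested windows. CCAAT, also searched on both strands, was in 16 G2/M windows (88.9%), 13 S phase windows (50%) and 38.6% of tested windows. All 13 G2/M windows with CHR letters also held CCAAT, a combination present in 5.1% of tested windows and 2 S phase windows. Such a match is a description of the letters. It is no evidence of binding.

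**Figure D1:**
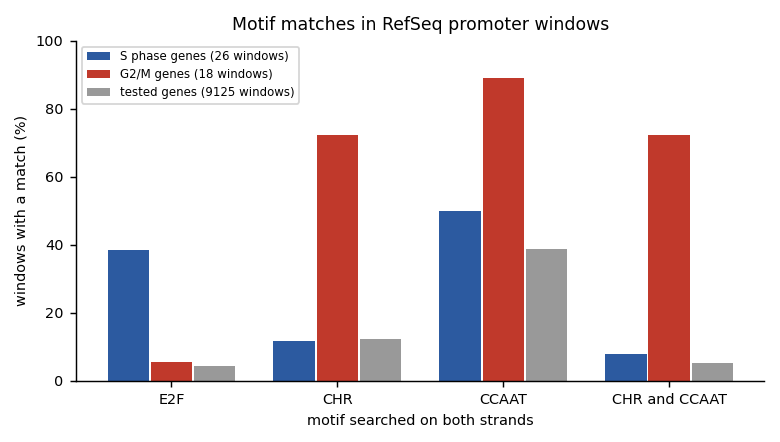
Share of RefSeq promoter windows (y axis, percent) with at least 1 match to each motif (x axis) for the S phase genes, the G2/M genes and all tested genes. E2F letters stand highest in the S phase windows at 38.5%, and CHR with CCAAT highest in the G2/M windows at 72.2%.

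The following 60-base stretches show the letters upstream of the RefSeq start used for the window, for 4 S phase and 4 G2/M genes. By GENCODE spans, the stretches of *Mcm7* and *Cdc6*, and part of that of *Ube2c*, lie inside the gene. E2F words are in capitals in the first 4 stretches, and CHR and CCAAT words (or their complements TTCAAA and ATTGG) in the last 4. Each is written 5′ to 3′ on the strand of its gene. The E2F words of *Mcm5* and *Mcm6* each overlap a second such word on the opposite strand.
Mcm5 (chr8:75109332-75109391, plus strand): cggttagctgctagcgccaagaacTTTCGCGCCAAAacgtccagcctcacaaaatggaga
Mcm6 (chr1:128359780-128359839, minus strand): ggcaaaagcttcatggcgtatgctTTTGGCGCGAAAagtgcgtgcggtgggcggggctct
Mcm7 (chr5:138172015-138172074, minus strand): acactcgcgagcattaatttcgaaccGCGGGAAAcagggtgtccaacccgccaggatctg
Cdc6 (chr11:98907987-98908046, plus strand): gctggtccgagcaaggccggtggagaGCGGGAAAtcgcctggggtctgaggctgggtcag
Cdk1 (chr10:69352945-69353004, minus strand): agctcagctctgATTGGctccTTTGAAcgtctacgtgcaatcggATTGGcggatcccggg
Top2a (chr11:99024360-99024419, minus strand): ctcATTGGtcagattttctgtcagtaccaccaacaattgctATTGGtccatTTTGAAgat
Mki67 (chr7:135716488-135716547, minus strand): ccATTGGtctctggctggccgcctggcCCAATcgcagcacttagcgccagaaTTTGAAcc
Ube2c (chr2:164769859-164769918, plus strand): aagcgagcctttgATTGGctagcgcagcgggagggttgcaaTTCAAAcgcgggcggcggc
The windows of *Tk1*, *E2f1*, *Ccne1*, *Tyms*, *Rfc4*, *Birc5* and *Nusap1* held none of the 3 motifs. Expression values played no part in the matching of letters itself. The tested genes set beside the members were those over 0.5 RPKM in at least 1 mouse. Over all 32851 windows, E2F was in 2.3%, CHR in 17.9%, CCAAT in 37.4% and CHR with CCAAT in 7.0%.

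Values are RPKM, reads divided by the length of the gene and by the depth of its library. Libraries held 7979224 to 9803599 reads, and the members had between 48 and 19835 reads in a library, so that counting error is small for nearly all of them. *Irx3* was listed at 0 in the *Hoxa9*/MTV cohort. Its values in mice 3.2, 3.3 and 3.5 were 15.1, 0.421 and 0.148 RPKM, and since *IRX3* was introduced as a human cDNA they hold only what aligned to the mouse gene. The 12 sort antigens and myeloid progenitor genes summed to 2068 to 2883 RPKM in *Hoxa9*/MTV and 5021 to 6521 RPKM in *Hoxa9*/*IRX3* mice. *Kit* was at 1.63 to 3.12 RPKM in all mice, and of the antigens that Gr1 antibodies detect, *Ly6c2* was at 413 to 844 and *Ly6g* at 0.0532 to 1.42 RPKM. Of other cell types, the 9 monocyte and macrophage markers summed to 97.6 to 120 RPKM in *Hoxa9*/MTV and 15.3 to 30.3 RPKM in *Hoxa9*/*IRX3* mice, 6 mast cell and basophil markers to 14.5 to 20.3 and 4.51 to 7.31 RPKM, and 10 mature neutrophil markers to 1511 to 2226 and 1179 to 3398 RPKM. The 9 erythroid markers, whose normal precursors divide fast, summed to 4.66 to 8.46 RPKM in all mice with *Alas2* and 3 globin genes listed at 0. The 8 B cell markers summed to 6.45 to 7.33 and 2.01 to 43.4 RPKM (*Pax5* and *Ms4a1* listed at 0) and the 8 T and NK cell markers to 22.7 to 33.0 and 15.0 to 482 RPKM (*Cd3d* and *Ncr1* listed at 0). The 6 megakaryocyte markers summed to 0.452 to 0.862 and 0.04996 to 0.823 RPKM. The highest B cell sum and the highest T and NK cell sum were both in mouse 3.5. Only 1 gene each of the T and NK cell, erythroid and megakaryocyte lists, and 3 of the B cell list, passed 0.5 RPKM in at least 1 mouse. These sums thus rest on few genes. Of 9 mitochondrial transcripts, read as a sign of RNA quality and summing to 18520 to 23590 and 23420 to 31640 RPKM, 3 that every cell uses (*mt-Co2*, *mt-Atp6* and *mt-Co3*) were also listed at 0 in all mice, so that a listed 0 need not mean that a gene is silent. The part of these cells and of RNA quality in the results was not tested.

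In the *Hoxa9*/*IRX3* mice, genes of some chromosome regions stood apart as a block, which touches 12 members. Relative to each gene's median over the 6 mice, genes on chromosome 2 from 130 to 170 Mb (141 genes without the members) had a median of -0.83 on the log2 scale in mouse 3.5, 56.4% of that median, and of 0.0 to 0.07 in the other 5 mice. Genes at 60 to 120 Mb (104 genes) were at -0.64 in mouse 3.3 and -0.76 in mouse 3.5. On chromosome 6 the median was 0.37 in mouse 3.2 (293 genes), and on chromosome 3 from 10 to 40 Mb it was -0.55 in that mouse (33 genes). In all these regions the *Hoxa9*/MTV mice had medians of -0.05 to 0.13, so the blocks lie on 1 side of the comparison. The other 18 chromosomes had medians between -0.15 and 0.08 in every mouse. The bounds of these regions were set after the values were seen. DNA copy number was not measured, and values for the 9 members on chromosome 2 (*Bub1b*, *Nusap1*, *Bub1*, *Pcna*, *Gins1*, *Tpx2*, *E2f1*, *Ube2c* and *Aurka*), for *Mcm2* and *Foxm1* on chromosome 6 and for *Ccna2* on chromosome 3 are given with this beside them.

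Few replication and mitosis genes differed between the cohorts by the test, and few of all tested genes did. Of the 52, 51 passed 0.5 RPKM in at least 1 mouse and were tested, and *Pola1*, the catalytic subunit of DNA polymerase alpha, did not, with 0.124 to 0.196 RPKM over a span of 327389 bases. No tested member differed by 2-fold, and 41 of 51 lay within 0.5 on the log2 scale. Only *Ccne2*, encoding cyclin E2, rose and only *Nusap1*, encoding a spindle protein, fell at an adjusted p under 0.05 by limma. These were 1 of 27 S phase genes higher, where 1.84% of all 9522 tested genes were, and 1 of 24 G2/M genes lower, where 3.52% of all were. At this limit 0 S phase genes were called lower and 0 G2/M genes higher. By limma voom on the recovered reads these counts were also 0, *Nusap1* was again called (adjusted p = 0.0325) and *Ccne2* was not (adjusted p = 0.0623). All changes compare *Hoxa9*/*IRX3* with *Hoxa9*/MTV leukemias on a log2(RPKM + 0.5) scale, which understates the change of weakly expressed genes.

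At an unadjusted p under 0.05, 3 S phase genes were higher (*Ccne2*, *Mcm4* and *Mcm2*) and 2 lower (*Tk1* and *Rfc2*), while 0 G2/M genes were higher and 5 lower (*Kif23*, *Cdk1*, *Nusap1*, *Aurkb* and *Bub1b*). Over all tested genes 8.34% were higher and 16% lower by this limit. The cohorts did not overlap for 4 S phase genes higher in all *Hoxa9*/*IRX3* mice (*Ccne2*, *Mcm2*, *Mcm4* and *Tyms*), where 12.2% of all tested genes did so. They did not overlap for 5 S phase genes lower (*Tk1*, *E2f1*, *Rfc2*, *Cdt1* and *Gins2*) and 7 G2/M genes lower (*Nusap1*, *Kif23*, *Cdk1*, *Aurkb*, *Bub1*, *Bub1b* and *Foxm1*), where 21.6% of all tested genes did so. For any single gene, 3 mice against 3 cannot give an exact permutation p below 0.1.

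The log2 fold change was above 0 for 11 and below 0 for 16 of the 27 S phase genes, with a median of -0.08. It was above 0 for 5 and below 0 for 19 of the 24 G2/M genes, with a median of -0.21. Over all tested genes the median was -0.06, and 57.5% lay below 0. For 8 members, with values of -0.08 to -0.02, the sign depended on the scaling (*Pold1*, *Lig1*, *Rfc3*, *Ccne1*, *Ccnb1*, *Ccnb2*, *Cenpe* and *Kif11*). In bulk RNA of sorted cells, fewer cells in S phase or mitosis and less RNA of these genes per cell cannot be told apart.

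**Figure D2:**
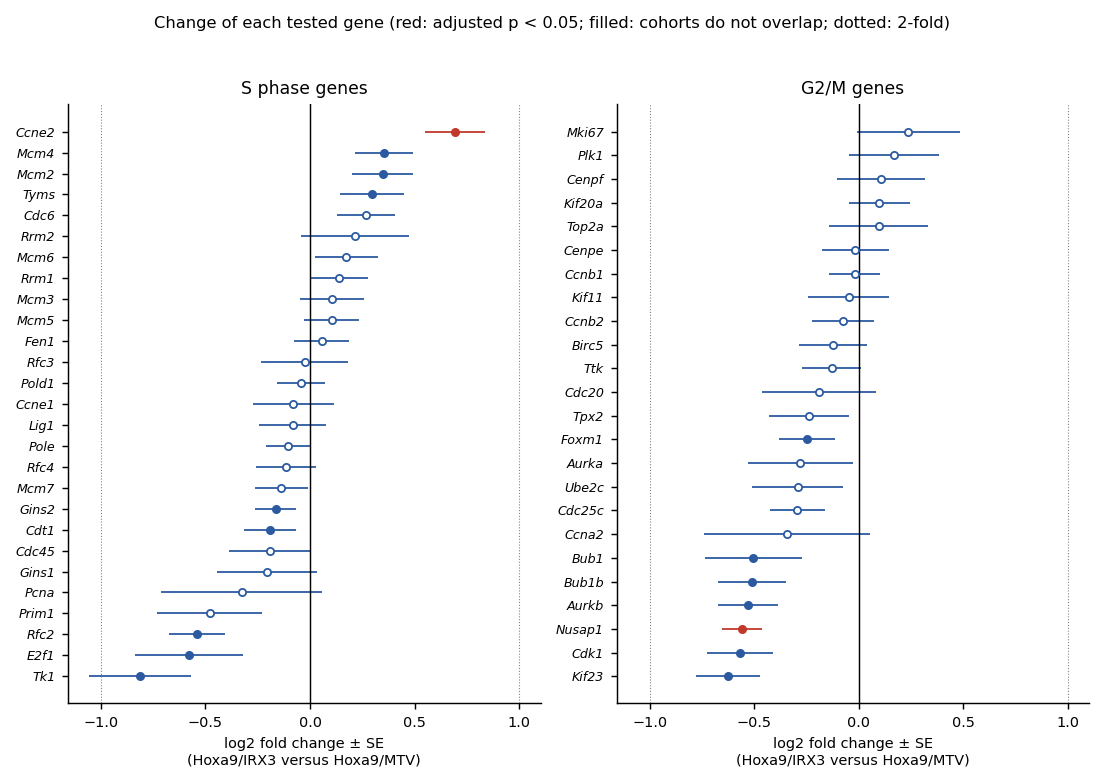
Log2 fold change of each tested gene (points) with its SE (bars), *Hoxa9*/*IRX3* versus *Hoxa9*/MTV, for 27 S phase genes and 24 G2/M genes in order of size. Filled points mark genes whose cohorts do not overlap and red marks *Ccne2* and *Nusap1*, the genes with an adjusted p under 0.05; all points lie inside the dotted lines of a 2-fold change.

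Levels between genes were compared on RPKM per exon length, since the deposited values appear to divide by the span of a gene with its introns (read from the steps between values), 1.73 to 37.15 times the exon length in these members. On that scale *Mki67*, which encodes the proliferation marker Ki-67, was highest, with 118 and 144 RPKM in the *Hoxa9*/MTV and *Hoxa9*/*IRX3* cohorts. *Fen1*, the flap endonuclease that trims Okazaki fragments, followed at 78.7 and 82.1 RPKM, then *Rrm2*, a subunit of ribonucleotide reductase, at 58.7 and 69.6 RPKM. *Rfc3*, a clamp loader subunit, was lowest at 2.81 and 2.70 RPKM, below *Cdc25c*, the phosphatase that activates CDK1, at 4.56 and 3.36 RPKM. All 52 genes were thus read in both cohorts. Exon length here joins all annotated exons of a gene, which can exceed the transcript made, so that levels and ratios between genes are approximate.

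The loading and firing factors of replication origins were not called in either direction. *Cdt1* was at 26.5, 28.0 and 26.3 RPKM in mice 1.1, 1.2 and 1.4 and at 22.6, 25.2 and 22.9 RPKM in mice 3.2, 3.3 and 3.5. Its cohorts did not overlap, with a log2 fold change of -0.19 with SE 0.12 (limma adjusted p = 0.383). *Cdt1* lies wholly within the locus *Gm20388* on the same strand, which was at 0.377 to 0.668 RPKM in all mice. *Gins2* also lies wholly within that locus and shares 2758 bases with *Gse1*, both on the opposite strand. *Cdc6*, the other licensing factor, was at 1.94, 1.74 and 2.17 RPKM in *Hoxa9*/MTV and at 2.06, 2.85 and 2.45 RPKM in *Hoxa9*/*IRX3* mice, which overlapped (0.27, SE 0.14, adjusted p = 0.287). *Gins2* was low in all *Hoxa9*/*IRX3* mice by a small margin, at 2.23 to 2.45 against 1.94 to 2.11 RPKM (-0.16, SE 0.10, adjusted p = 0.351). *Gins1* and *Cdc45* overlapped, with log2 fold changes of -0.21 and -0.19, and *Gins1* lies on chromosome 2, where mouse 3.5 was lowest at 0.508 RPKM.

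The genes of the MCM2-7 helicase had a log2 fold change above 0 for 5 of 6 subunits, with a median of 0.14, and none of the 6 was called. *Mcm4* was at 9.61, 9.01 and 9.63 RPKM in mice 1.1, 1.2 and 1.4 and at 11.1, 14.2 and 11.5 RPKM in mice 3.2, 3.3 and 3.5. All *Hoxa9*/*IRX3* mice were thus above all *Hoxa9*/MTV mice, and mouse 3.3 was highest. Cohort means were 9.41 ± 0.354 and 12.2 ± 1.69 RPKM (± SD, n = 3 each), and the log2 fold change was 0.35 with SE 0.14 (limma adjusted p = 0.186). *Mcm2* was at 14.1, 12.5 and 10.9 RPKM against 17.2, 15.8 and 15.0 RPKM, again without overlap (0.35, SE 0.14, adjusted p = 0.203). *Mcm2* lies on chromosome 6, where neighboring genes were also high in mouse 3.2, its highest mouse; without that mouse the change was 0.30.

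*Mcm6*, *Mcm3* and *Mcm5* had log2 fold changes of 0.17, 0.10 and 0.10, with cohorts that overlapped. In each of these 3 genes mice 3.3 and 3.5 lay above mouse 3.2. *Mcm7* had the opposite sign, at 9.07 to 10.1 RPKM in *Hoxa9*/MTV and 8.06 to 9.59 RPKM in *Hoxa9*/*IRX3* mice (-0.14, adjusted p = 0.533). The MCM subunits work as a hexamer of 1 copy each, and ratios between them in a mouse were also read. These pairs, like those of the ratios below, were chosen after their values were seen. A lack of overlap in such a ratio is therefore a description and no further support for a difference. The ratio of *Mcm4* to *Mcm7*, per exon length, was 2.06 ± 0.182 in *Hoxa9*/MTV and 2.94 ± 0.181 in *Hoxa9*/*IRX3* mice (SD, n = 3 each) without overlap, and that of *Mcm2* to *Mcm7* was 1.59 ± 0.137 and 2.27 ± 0.329, also without overlap. *Mcm7* shares 421 and 64 bases with the neighbors *Ap4m1* and *Cops6* on the opposite strand, whose reads could add to it if strand was not used in counting.

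Of the polymerase, primase, clamp and ligase genes, 9 were tested, and 8 of them had a log2 fold change below 0, with a median of -0.11 and no call. *Fen1* was the exception in sign at 0.06 (SE 0.13), with 37.3 to 38.9 RPKM in *Hoxa9*/MTV and 36.1 to 42.8 RPKM in *Hoxa9*/*IRX3* mice. *Pold1* and *Pole*, the catalytic subunits of the replicative polymerases delta and epsilon, were at -0.04 (SE 0.11) and -0.11 (SE 0.10). *Lig1*, the ligase that joins Okazaki fragments, was at -0.08 (SE 0.16), and the clamp loader subunits *Rfc3* and *Rfc4* at -0.02 and -0.11.

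*Pcna*, the sliding clamp, was at 17.2, 16.7 and 23.6 RPKM in mice 1.1, 1.2 and 1.4 and at 17.8, 23.4 and 7.997 RPKM in mice 3.2, 3.3 and 3.5. Mouse 3.5 was low by itself, and the other 2 mice lay inside the *Hoxa9*/MTV range. The log2 fold change of -0.33 with SE 0.39 (limma adjusted p = 0.633) turned to 0.11 without mouse 3.5, in which the 40 genes neighboring *Pcna* on chromosome 2 had a median of -0.81 relative to the 6 mice. *Prim1*, the catalytic primase subunit, was at 2.43 to 2.75 RPKM in *Hoxa9*/MTV and at 1.76, 2.67 and 1.06 RPKM in mice 3.2, 3.3 and 3.5, with overlap (-0.48, SE 0.25, adjusted p = 0.288). It lies on chromosome 10, outside the regions that stood apart.

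*Rfc2*, which encodes another clamp loader subunit, had the most negative value of the group. It was at 5.38, 5.95 and 5.11 RPKM in mice 1.1, 1.2 and 1.4 and at 3.31, 4.22 and 3.35 RPKM in mice 3.2, 3.3 and 3.5. The cohorts did not overlap (-0.54, SE 0.14, adjusted p = 0.0711), and without mouse 3.3 it passed the limit (-0.64, adjusted p = 0.0432). *Rfc2* shares 1784 bases with *Lat2*, an adaptor gene of myeloid cells on the opposite strand. *Lat2* was at no less than 9.48 RPKM in *Hoxa9*/MTV and at 0.566 to 3.06 RPKM in *Hoxa9*/*IRX3* mice (-2.26, adjusted p = 0.0338). Whether strand was used in counting is not given in the sources used here, and the part of *Lat2* reads in *Rfc2* was not tested.

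The genes of deoxynucleotide supply had log2 fold changes of both signs. *Tk1*, which encodes the cytosolic thymidine kinase of the salvage pathway, was at 8.72, 7.47 and 5.93 RPKM in mice 1.1, 1.2 and 1.4 and at 3.34, 5.67 and 3.18 RPKM in mice 3.2, 3.3 and 3.5. All *Hoxa9*/*IRX3* mice were lower, mouse 3.3 by a narrow margin. Cohort means were 7.38 ± 1.40 and 4.06 ± 1.39 RPKM (± SD, n = 3 each), the most negative log2 fold change of the 51 genes at -0.81 (SE 0.24), and did not pass the limit (adjusted p = 0.107). Without mouse 3.3 it did (-1.05, adjusted p = 0.0341).

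*Tyms*, which encodes thymidylate synthase of the de novo pathway to the same nucleotide, had the opposite sign. It was at 2.04, 1.83 and 1.36 RPKM in *Hoxa9*/MTV and at 2.08, 2.58 and 2.07 RPKM in *Hoxa9*/*IRX3* mice, without overlap by a narrow margin (0.30, SE 0.15, adjusted p = 0.283). The ratio of *Tk1* to *Tyms*, per exon length, was 3.43, 3.28 and 3.50 in mice 1.1, 1.2 and 1.4 and 1.29, 1.76 and 1.23 in mice 3.2, 3.3 and 3.5. These cohorts did not overlap, with means of 3.41 ± 0.109 and 1.43 ± 0.291 (SD, n = 3 each). *Rrm1* and *Rrm2*, the large and small subunits of ribonucleotide reductase, overlapped, with log2 fold changes of 0.14 (SE 0.14) and 0.21 (SE 0.26). *Tk1* lies within the locus *Gm20708* on the opposite strand, which was at 9.60 to 10.9 RPKM in *Hoxa9*/MTV and 8.16 to 11.0 RPKM in *Hoxa9*/*IRX3* mice (-0.08, adjusted p = 0.767).

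Among the G1/S regulators, *Ccne2* rose. Cyclin E2 activates CDK2 at the start of S phase. *Ccne2* (ENSMUSG00000028212; chromosome 4) was at 1.76, 1.55 and 1.35 RPKM in mice 1.1, 1.2 and 1.4 and at 2.81, 3.30 and 2.39 RPKM in mice 3.2, 3.3 and 3.5. All *Hoxa9*/*IRX3* mice were above all *Hoxa9*/MTV mice, with no shared value. Cohort means were 1.55 ± 0.206 and 2.83 ± 0.458 RPKM (± SD, n = 3 each), 1.82 times as high, with a log2 fold change of 0.70 with SE 0.14 (limma adjusted p = 0.0448). The call stood close to the limit. It was lost when mouse 1.1, 1.2, 1.4, 3.2 or 3.3 was left out (adjusted p of up to 0.183) and kept without mouse 3.5 (adjusted p = 0.0391), while the log2 fold change stayed between 0.60 and 0.79. It was also lost with no filter on level, no variance trend, voom, all gene types or array weights (limma adjusted p of 0.0510 to 0.0748). *Ints8*, which overlaps *Ccne2* on the opposite strand, was at 0.281 to 0.403 RPKM in all mice.

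*Ccne1*, which encodes the paralog cyclin E1, overlapped between the cohorts. It was at 1.504, 1.41 and 1.62 RPKM in *Hoxa9*/MTV and at 1.24, 2.04 and 1.06 RPKM in *Hoxa9*/*IRX3* mice, with a log2 fold change of -0.08 with SE 0.19 (limma adjusted p = 0.828), and mouse 3.3 was the highest and mouse 3.5 the lowest of all 6. Per exon length the ratio of *Ccne2* to *Ccne1* was 1.25, 1.18 and 0.889 in mice 1.1, 1.2 and 1.4 and 2.42, 1.74 and 2.41 in mice 3.2, 3.3 and 3.5. On this approximate scale both cyclins were thus near parity in *Hoxa9*/MTV mice, and cyclin E2 read higher than cyclin E1 in every *Hoxa9*/*IRX3* mouse.

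*E2f1*, the activating E2F factor, was at 8.10, 6.63 and 6.64 RPKM in mice 1.1, 1.2 and 1.4 and at 5.97, 5.46 and 2.90 RPKM in mice 3.2, 3.3 and 3.5. The cohorts did not overlap, and mouse 3.5 was lowest by far. The log2 fold change of -0.58 with SE 0.26 (limma adjusted p = 0.229) was -0.29 without mouse 3.5, in which the 61 genes next to *E2f1* on chromosome 2 were also low (median -0.76).

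**Figure D3:**
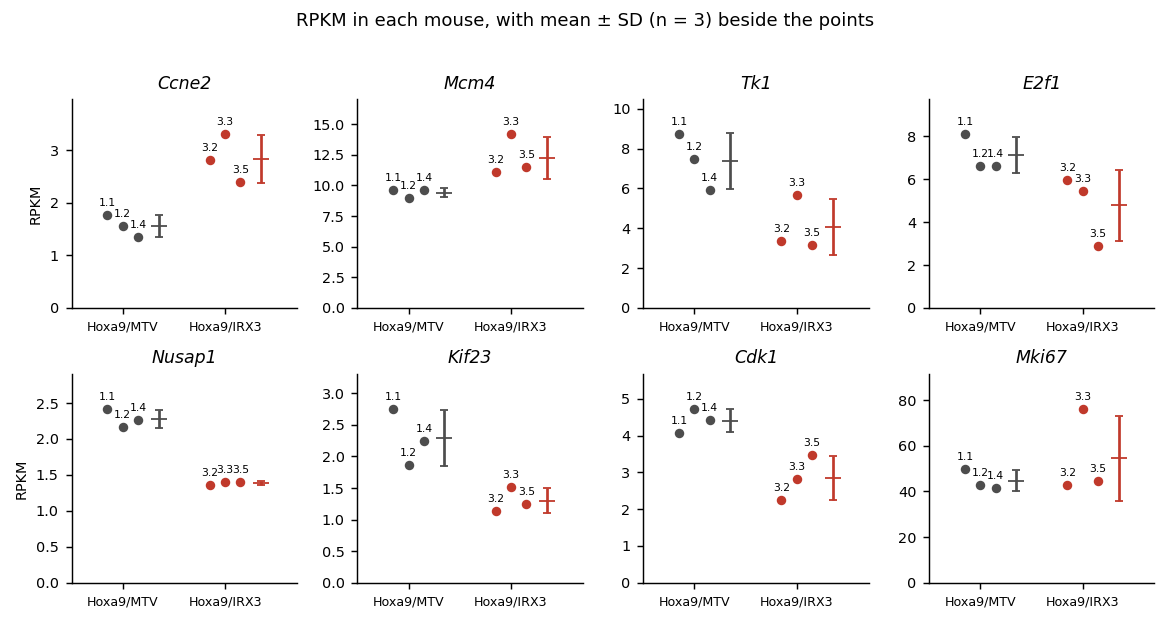
RPKM (y axis) in each mouse (points, labelled with the mouse) of *Hoxa9*/MTV and *Hoxa9*/*IRX3* cohorts for 8 genes, with the mean ± SD (n = 3) beside the points. *Ccne2* and *Mcm4* are higher and *Tk1*, *E2f1*, *Nusap1*, *Kif23* and *Cdk1* lower in every *Hoxa9*/*IRX3* mouse, while *Mki67* is high in mouse 3.3 only, at 76.1 RPKM.

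Of the mitotic genes, the cyclins and CDK1 regulators all had a log2 fold change below 0 (6 of 6, median -0.27), of which *Ccnb1* and *Ccnb2* turned above 0 under other scalings, and none was called. *Cdk1*, the kinase that drives entry into mitosis, was at 4.08, 4.72 and 4.42 RPKM in mice 1.1, 1.2 and 1.4 and at 2.26, 2.82 and 3.47 RPKM in mice 3.2, 3.3 and 3.5. All *Hoxa9*/*IRX3* mice were lower, mouse 3.2 the most. Cohort means were 4.41 ± 0.320 and 2.85 ± 0.606 RPKM (± SD, n = 3 each), and the log2 fold change was -0.57 with SE 0.16 (limma adjusted p = 0.0908), which passed without mouse 3.5 (-0.70, adjusted p = 0.0491).

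Its partner *Ccnb1*, cyclin B1, overlapped between the cohorts. It was at 5.81, 4.96 and 4.84 RPKM in *Hoxa9*/MTV and at 4.76, 5.18 and 5.41 RPKM in *Hoxa9*/*IRX3* mice (-0.02, SE 0.12, adjusted p = 0.939). The ratio of *Cdk1* to *Ccnb1*, per exon length, was 1.64 ± 0.258 in *Hoxa9*/MTV and 1.06 ± 0.161 in *Hoxa9*/*IRX3* mice (SD, n = 3 each), without overlap. *Ccnb2* was at -0.08 (SE 0.15), and *Cdc25c* overlapped at -0.29 (SE 0.13).

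*Ccna2*, cyclin A2 of S phase and early mitosis, was at 30.0, 28.5 and 28.1 RPKM in mice 1.1, 1.2 and 1.4 and at 11.3, 34.1 and 29.8 RPKM in mice 3.2, 3.3 and 3.5. Mouse 3.2 alone was low, and mouse 3.3 was the highest of all 6. The log2 fold change was -0.34 (SE 0.40) and 0.14 without mouse 3.2. In that mouse the 17 genes neighboring *Ccna2* on chromosome 3 had a median of -0.70. *Foxm1*, the transcription factor of mitotic genes, was at 14.2, 12.9 and 13.2 RPKM in *Hoxa9*/MTV and at 10.3, 12.7 and 10.9 RPKM in *Hoxa9*/*IRX3* mice, without overlap (-0.25, SE 0.13, adjusted p = 0.302). It was lowest in mouse 3.2, in which its neighbors on chromosome 6 were high (median 0.37).

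The mitotic kinases and checkpoint genes had a median of -0.28, with 6 of 7 below 0 and none called. *Aurkb*, the kinase of the chromosomal passenger complex, was at 19.8, 22.6 and 22.6 RPKM in mice 1.1, 1.2 and 1.4 and at 13.9, 16.8 and 13.9 RPKM in mice 3.2, 3.3 and 3.5. The cohorts did not overlap, and the adjusted p was 0.0820 (-0.53, SE 0.14). *Birc5*, survivin of the same complex, overlapped at 8.57 to 10.4 and 6.99 to 9.55 RPKM (-0.12, SE 0.16), and so did the ratio of *Aurkb* to *Birc5*. *Plk1*, Polo-like kinase 1, was at 4.83, 4.03 and 4.24 RPKM in *Hoxa9*/MTV and at 3.48, 6.45 and 5.35 RPKM in *Hoxa9*/*IRX3* mice. Mouse 3.2 was thus the lowest and mouse 3.3 the highest of all 6 (0.17, SE 0.22, adjusted p = 0.667), and the sign turned without mouse 3.3 (-0.01).

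*Bub1* and *Bub1b*, the spindle checkpoint kinase and its relative, both lie on chromosome 2. *Bub1* was at 1.79, 1.76 and 1.76 RPKM in mice 1.1, 1.2 and 1.4 and at 1.48, 1.38 and 0.599 RPKM in mice 3.2, 3.3 and 3.5 (-0.50, SE 0.23, adjusted p = 0.236). *Bub1b* was at 1.91, 2.03 and 1.81 RPKM against 1.504, 1.29 and 0.855 RPKM (-0.51, SE 0.16, adjusted p = 0.120). In both genes every *Hoxa9*/*IRX3* mouse was lower, with mouse 3.5 the lowest. Centered on the neighboring genes of each mouse, the changes were -0.21 and -0.03. *Aurka*, the centrosomal Aurora kinase on the same chromosome, was at -0.28 (SE 0.25) and at -0.002 without mouse 3.5, and *Ttk*, the checkpoint kinase MPS1, at -0.13 (SE 0.14).

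The APC/C factors overlapped. *Cdc20*, its activator, was at 11.9 to 15.9 RPKM in *Hoxa9*/MTV and at 7.66, 15.7 and 12.4 RPKM in mice 3.2, 3.3 and 3.5 (-0.19, SE 0.27). *Ube2c*, its ubiquitin-conjugating enzyme, was at 2.70 to 2.85 RPKM and at 1.81, 3.30 and 1.699 RPKM (-0.29, SE 0.22, adjusted p = 0.444). Mouse 3.3 was the highest of all 6 for *Ube2c*, and without it the change passed the limit (-0.54, adjusted p = 0.0432). *Ube2c* lies on chromosome 2, where its 39 neighbors were at -0.90 in mouse 3.5, and centered on them its change over all mice was 0.07 (adjusted p = 0.873).

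Among kinetochore and motor genes, *Kif23* had the most negative change of the mitotic genes. It encodes MKLP1, a kinesin of the central spindle needed for cytokinesis. *Kif23* was at 2.75, 1.87 and 2.24 RPKM in mice 1.1, 1.2 and 1.4 and at 1.14, 1.52 and 1.24 RPKM in mice 3.2, 3.3 and 3.5. All *Hoxa9*/*IRX3* mice were lower without overlap, with a mean of 2.29 ± 0.443 against 1.30 ± 0.193 RPKM (SD, n = 3 each). The log2 fold change of -0.62 (SE 0.15) did not pass the limit (adjusted p = 0.0691). *Kif23* lies on chromosome 9, outside the regions that stood apart. The other motors *Kif11* and *Kif20a* (-0.05 and 0.10) and the kinetochore genes *Cenpe* and *Cenpf* (-0.02 and 0.11) overlapped and lay within 1 SE of 0.

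Of the chromosome structure and spindle assembly genes, *Nusap1* fell. It encodes a microtubule-binding protein of the spindle. *Nusap1* (ENSMUSG00000027306; chromosome 2 of GRCm38, 119618298 to 119651244, plus strand) was at 2.42, 2.16 and 2.26 RPKM in mice 1.1, 1.2 and 1.4 and at 1.35, 1.40 and 1.40 RPKM in mice 3.2, 3.3 and 3.5. The *Hoxa9*/*IRX3* mice were all lower and nearly equal. Cohort means were 2.28 ± 0.129 and 1.39 ± 0.0289 RPKM (± SD, n = 3 each), and the log2 fold change was -0.56 (SE 0.10, the smallest SE of the members, adjusted p = 0.0285 by limma). The call was lost without mouse 1.1, 1.2 or 1.4 (adjusted p of up to 0.139) and kept without mouse 3.2, 3.3 or 3.5.

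The fall of *Nusap1* stood among neighbors that also differed in 2 of the 3 mice. Relative to the *Hoxa9*/MTV mean, the 47 genes around *Nusap1* had medians of 0.00, -0.62 and -0.81 in mice 3.2, 3.3 and 3.5, where *Nusap1* itself was at -0.58, -0.55 and -0.54. In mouse 3.2 it was thus low among neighbors near 0, and in mice 3.3 and 3.5 it was no lower than its neighbors. Centered on them, its log2 fold change was -0.08 (adjusted p = 0.836). *Oip5*, a mitotic gene that overlaps *Nusap1* by 172 bases on the opposite strand, was at 2.15, 1.87 and 2.23 RPKM in *Hoxa9*/MTV and at 1.79, 1.07 and 0.685 RPKM in *Hoxa9*/*IRX3* mice (-0.67, adjusted p = 0.152).

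*Mki67* had the most positive log2 fold change of the mitotic genes, at 49.8, 42.8 and 41.4 RPKM in mice 1.1, 1.2 and 1.4 and at 42.7, 76.1 and 44.7 RPKM in mice 3.2, 3.3 and 3.5. Only mouse 3.3 lay outside the *Hoxa9*/MTV range (0.24, SE 0.25, adjusted p = 0.584), and without it the change was -0.03. *Top2a*, topoisomerase II alpha, was at 9.81, 9.02 and 8.36 RPKM against 6.68, 12.8 and 10.6 RPKM, with mouse 3.2 lowest and mouse 3.3 highest of all 6 (0.09, SE 0.24, adjusted p = 0.834). It turned to -0.10 without mouse 3.3. *Tpx2*, the spindle assembly factor that activates Aurora A, was at -0.24 (SE 0.19), on chromosome 2.

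These genes differed more among the *Hoxa9*/*IRX3* leukemias than among the *Hoxa9*/MTV leukemias, as did tested genes in general. The median SD between mice on the log2 scale was 0.121 in *Hoxa9*/MTV and 0.276 in *Hoxa9*/*IRX3* for G2/M genes, 0.108 and 0.186 for S phase genes, and 0.121 and 0.242 for all tested genes. Mouse 3.3 was the highest of its cohort for 38 of the 51 genes and the lowest for 0, whereas mouse 3.2 was the lowest for 30. The same counts were not made over all tested genes, so whether this order is particular to these genes was not tested.

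In mouse 3.2 the mitotic genes were low as a group. Of 24 G2/M genes, 22 (91.7%) were below all 3 *Hoxa9*/MTV mice and 1 was above them, where 40.6% of all tested genes were below and 33.9% above. The median G2/M gene was at -0.34 relative to the *Hoxa9*/MTV mean, and the median S phase gene at -0.13, with 16 of 27 (59.3%) below all *Hoxa9*/MTV mice. Of the 15 G2/M genes off chromosomes 2, 3 and 6, 13 (86.7%) were below.

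In mouse 3.3 most genes of both groups lay above the *Hoxa9*/MTV mean. Below it were 8 of 27 S phase and 10 of 24 G2/M genes. Above all *Hoxa9*/MTV mice were 14 of 27 S phase genes (51.9%) and 11 of 24 G2/M genes (45.8%), where 33% of all tested genes were. Below all *Hoxa9*/MTV mice were 5 S phase genes (18.5%) and 7 G2/M genes (29.2%), where 40.2% of all tested genes were. The medians were 0.18 for S phase and 0.09 for G2/M genes.

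Mouse 3.5 had medians of -0.14 for S phase and -0.18 for G2/M genes, the former close to that of mouse 3.2 and the latter between those of the other 2 mice, beside -0.13 for all tested genes. In it 14 of 27 S phase genes (51.9%) and 12 of 24 G2/M genes (50%) were below all *Hoxa9*/MTV mice, and 50% of all tested genes were. Above all *Hoxa9*/MTV mice were 11 S phase genes (40.7%) and 3 G2/M genes (12.5%), where 27.5% of all tested genes were. The MCM genes of mouse 3.5 had a median of 0.27. Off chromosomes 2 and 6 the medians of mouse 3.5 were -0.06 and -0.02 for S phase (23 genes) and G2/M (17 genes). In the *Hoxa9*/MTV mice the medians of both groups lay between -0.09 and 0.05. These counts describe single animals, in which 1 library cannot separate the animal from its preparation.

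**Figure D4:**
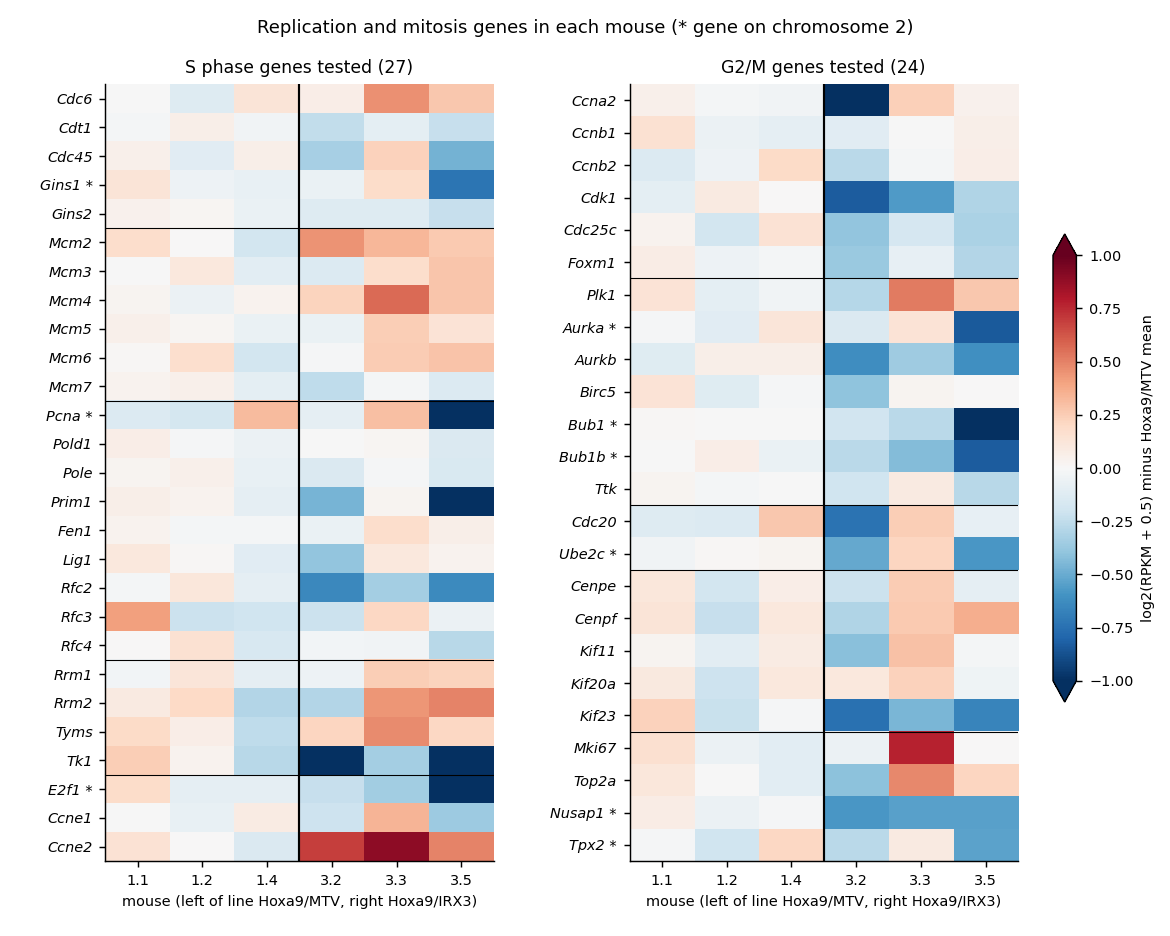
Each tested gene (rows, S phase left and G2/M right, divided by role) in each mouse (columns) as log2(RPKM + 0.5) minus the *Hoxa9*/MTV mean, with colors clipped at 1 in each direction. The column of mouse 3.2 is below 0 for 23 of 24 G2/M genes, and that of mouse 3.3 is above 0 for most genes. Genes on chromosome 2 (stars) are low in mouse 3.5.

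The 9 members on chromosome 2 were then set beside their neighbors. All 9 had a log2 fold change below 0, 3 in S phase (median -0.33) and 6 in G2/M (median -0.40). In mouse 3.5 they were at -1.19 to -0.53 relative to the *Hoxa9*/MTV mean, and the medians of the 24 to 61 genes around each were at -0.94 to -0.80. In mouse 3.3 *Bub1b* and *Nusap1* (-0.43 and -0.55) had low neighbors, and the other 7 members lay between -0.35 and 0.30 among neighbors near 0. In mouse 3.2 all 9 were below 0, at -0.58 to -0.07, among neighbors at -0.08 to 0.01.

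Off chromosomes 2 and 6 the median log2 fold change was -0.04 for 23 S phase genes and -0.08 for 17 G2/M genes, and the difference between the groups went from 0.135 to 0.031. Of the 7 G2/M genes lower without overlap, 3 stood among these 17 (*Cdk1*, *Aurkb* and *Kif23*). Of the 5 such S phase genes, 4 stood among these 23 (*Cdt1*, *Gins2*, *Rfc2* and *Tk1*). Among the same 23, 3 S phase genes were higher without overlap. Over all tested genes, on any chromosome, 21.6% were lower and 12.2% higher without overlap.

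**Figure D5:**
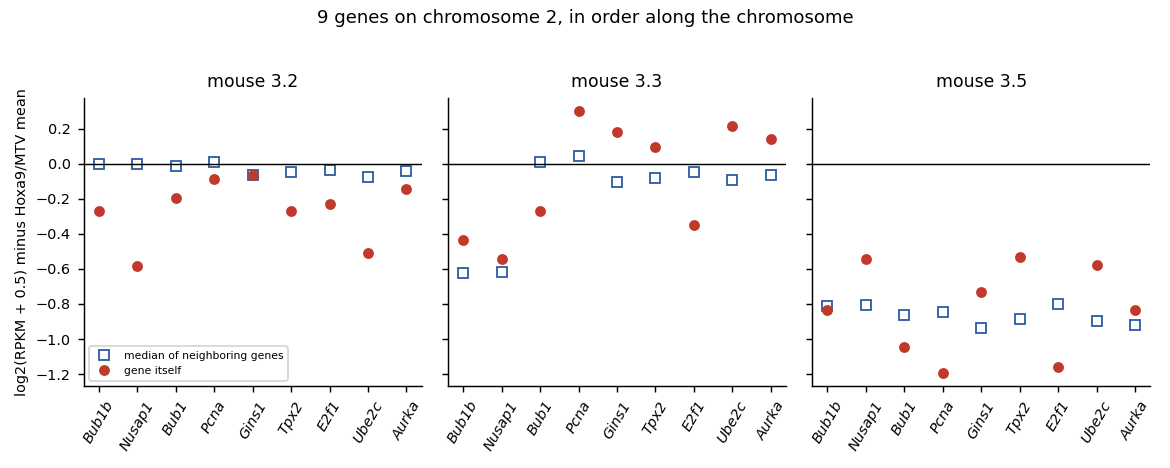
The 9 genes on chromosome 2 in their order (x axis) in mice 3.2, 3.3 and 3.5, as log2(RPKM + 0.5) minus the *Hoxa9*/MTV mean (y axis), for the gene itself (points) and the median of its neighboring genes within 5 Mb (squares). In mouse 3.5 points and squares both lie between -1.19 and -0.53, in mouse 3.2 the squares lie near 0 and the points below them.

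Other genes of the same processes, read beside the members, were not called by limma. Of 57 tested replication genes outside the 52, such as the origin recognition complex, RPA and further polymerase subunits, 23 had a log2 fold change above 0 and 34 below, with a median of -0.07. At an unadjusted p under 0.05, 1 was higher (*Asf1b*, a histone chaperone, 0.59) and 9 were lower, among them *Pola2* (-0.51) and *Rfc5* (-0.46), partners of *Pola1* and *Rfc2*. The lowest adjusted p was 0.0643. Of 76 further mitosis genes 27 were above and 49 below 0, with a median of -0.11, and 2 were higher and 11 lower at an unadjusted p under 0.05. Neither list thus had a larger share of such genes than all tested genes, of which 8.34% were higher and 16% lower. *Pbk* (0.44) and *Hmmr* (0.35) were those higher, and *Arhgap11a* (-0.87, chromosome 2) and *Kifc1* (-0.45) had the lowest adjusted p among those lower, 0.0580 and 0.0643. By limma voom on the recovered reads, 1 of the 76 (*Arhgap11a*) was called lower, and 0 genes of the other lists were called.

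The regulators that act on these promoters were not called either. Of 16 tested genes of the E2F, RB and MuvB families with *Mybl2*, which encodes B-MYB, 10 were above and 6 below 0 (median 0.05), and the lowest adjusted p was 0.167, for *Rbbp4* (-0.35), a histone-binding subunit.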

How the data were processed

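The authors prepared strand-specific polyA libraries from sorted KIT+Gr1+ cells of 3 mice per cohort and sequenced paired ends. They aligned reads to GRCm38 with Bowtie2 2.2.1, filtered alignments with SAMtools 0.1.19 (versions per the submitters' processing notes), and deposited 1 table of RPKM per gene and mouse. Each column was assigned to a mouse by its label. The number of per-sample columns left unused was 0.

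Library sizes were recovered from the steps between low RPKM values, with GENCODE M21 spans. The divisor is not given in the sources used here and was inferred: with these library sizes, reads came out whole in all mice for 62.5% of 9135 genes with introns by the whole span and for 0 of them by exon length. Reads so recovered were whole, within 0.01 of a read, in all mice for 37 of the 52 members and are approximate for the rest. Intervals were not given for counting error, which is only part of the error between mice. Reads over genes summed to 104% to 105.4% of a library, so some lie on more than 1 gene, and 13 members overlap another gene that has reads of its own.

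Protein-coding genes over 0.5 RPKM in at least 1 mouse (9522) entered a linear model of log2(RPKM + 0.5), made in R 4.3.3 by limma 3.58.1 (lmFit, then eBayes with trend). P-values were adjusted over all of them by Benjamini-Hochberg, and calls made at an adjusted p under 0.05. All limma tests are two-sided. The fit was also run on simulated independent genes with the same spread in both cohorts. The spread here differed between the cohorts, so that run does not test the calls made here. The labels give 1 mouse per library, and mouse numbers do not pair the cohorts.

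Alternatives were other pseudocounts (0.1 and 1), filters, scalings, exon length, all gene types, no variance trend, array weights, voom on the recovered reads and leaving out each mouse. Centering each gene on the median of its neighbors within 5 Mb and leaving out members on chromosomes 2 and 6 were added after the data were seen. Members and lists were chosen with earlier results of these data known. A further marker gene planned for the erythroid list is not reported here. Values in every mouse were planned for called members, for the 2 most positive and 2 most negative of each group, and for *Mcm2*, *Pcna*, *E2f1*, *Mki67*, *Top2a*, *Ccnb1* and *Foxm1*. Other members given by mouse, the ratios (7 pairs) and the genes outside the lists were chosen after their values were seen. Promoter sequences are from RefSeq on GRCm38.p6. Tables and figures were made with Python 3.11.15, pandas 2.3.3, scipy 1.17.1 and matplotlib 3.10.9.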

Additional observations from a re-analysis of the deposited data

How the results depend on the processing

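The calls of single genes rest on few mice and lie near the limit. The count of S phase genes called higher (1, *Ccne2*) was 0 with no filter on level, no variance trend, voom, all gene types or array weights, and 0 to 1 with a mouse left out (1 only without mouse 3.5). The count called lower among S phase genes was 0 to 2 with a mouse left out. The count of G2/M genes called lower (1, *Nusap1*) was 0 to 2 with a mouse left out, and 0 when genes were centered on their neighbors or when members on chromosome 2, or on chromosomes 2 and 6, were left out. The median of G2/M genes was -0.34 to -0.04 with a mouse left out (the latter without mouse 3.2) and -0.012 when centered on neighbors. That of S phase genes was -0.15 to 0.02. The S phase minus G2/M difference was 0.01 (without mouse 1.4) to 0.19, and 0.031 without chromosomes 2 and 6. The median of all tested genes was -0.004 with no filter, 0.006 with median-of-ratios scaling, and 0.017 with quantile normalization or centering. The sign turned for *Pcna* without mouse 3.5 (0.106, lowest -0.64 with a mouse left out), and for *Mki67*, *Plk1* and *Top2a* without mouse 3.3 (-0.027, -0.008 and -0.099, up to 0.386, 0.394 and 0.348 with a mouse left out). It turned for *Ccnb1* with median-of-ratios scaling (0.062), quantile normalization (0.08), centering (0.091) and with a mouse left out (-0.065 to 0.055, above 0 without mouse 1.1 or 3.2). The sign turns listed are those of the members followed over every setting. Other members also turned with a mouse left out, such as *Gins1* without mouse 3.5 (0.058) and *Ccna2* and *Kif11* without mouse 3.2 (0.141 and 0.136). Where no value above shows it, the cause was not tested.

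Over all genes, 510 were called, 34.3% of them higher. Without mouse 1.1, 1.2 or 1.4 there were 76, 66 and 61 calls, and without mouse 3.2, 3.3 or 3.5 there were 761, 678 and 482. There were 326 calls with all gene types and 715 with exon length. The share higher was 46.1% with quantile normalization and 47.4% with centering. No paired analysis was possible because the mouse numbers differ between the cohorts and name single animals. With 3 mice per cohort and a median SE of 0.153, changes of the size seen in most members could not be told from 0.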
